A study of Homo sapiens with 11 samples.

Results

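Transcripts of 10 genes of the telomerase and shelterin complexes were followed through the formation of engineered myometrial microtissues. The set was TERT, the 4 H/ACA protein genes DKC1, NOP10, NHP2 and GAR1, and the 5 shelterin genes TERF1, TERF2, POT1, TINF2 and TERF2IP. Members were the rows of the deposited count table that carried these gene names, and all 10 were found among 78932 gene rows. Each of the 10 passed the filter on low counts and was tested with 18245 genes in all.

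Telomerase extends chromosome ends. Its reverse transcriptase, TERT, copies repeats from a template in the RNA subunit TERC, and dyskerin, NOP10, NHP2 and GAR1 bind the H/ACA part of TERC, as they also bind the H/ACA small RNAs that guide pseudouridylation in the nucleolus and Cajal bodies. Shelterin coats the repeats: TERF1 and TERF2 bind the double-stranded part, POT1 binds the single-stranded end, TINF2 bridges them and TERF2IP is held by TERF2. Most somatic cells silence TERT, and forced expression of TERT is a standard way to immortalise them.

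The 11 libraries were made from hTERT-HM cells of genotype WT, a line of human myometrial smooth muscle that carries introduced telomerase, cast as microtissues that form over 6 days for the measurement of contraction to oxytocin. Day 1 was sampled by 3 libraries, day 3 by 4 and day 6 by 4, with no other treatment in the labels, so day is the only factor. The labels number the replicates and name no separate cultures. The p-values therefore reflect the spread among these libraries alone, and that spread may be technical. Every group carries the immortalising TERT, and no parental cells without it were analysed here.

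Poly(A)-selected RNA gave 28.07 to 33.02 M counts a library. Levels are CPM, counts scaled to 1e6 per library, adjusted by the trimmed mean of M-values (TMM), which sets libraries to a common level for most genes. The 8 smooth muscle markers summed to 1536 to 1877 CPM on day 1, 1586 to 1636 on day 3 and 2579 to 2825 on day 6, with DES at 0 to 2 counts. Most of the day 1 sum came from TPM2, CALD1 and TAGLN (944.7, 448 and 261.5 CPM). MYH11 stood at 1.14, 1.073 and 1.551 CPM on days 1, 3 and 6. From day 1 to day 3 ACTA2 rose (0.61) and CALD1 fell (-0.31, adjusted p = 0.0142 and 0.00239, edgeR). Of the epithelial markers, EPCAM and CDH1 had at most 3 counts, while the keratin genes KRT18 (10.81, 13.02 and 11.43 CPM on days 1, 3 and 6) and KRT19 (2.209, 3.967 and 4.986 CPM) were detected and both rose from day 1 to day 3 (0.27 and 0.84, adjusted p = 0.038 and 0.0217). Among endothelial markers, CDH5 and VWF had at most 20 counts, PECAM1 stood at 31.06, 32.28 and 28.36 CPM, and KDR at 1.352, 1.653 and 0.7497 CPM, and both of the latter fell from day 3 to day 6 (-0.19 and -1.13, adjusted p = 0.0227 and 0.000255). With scaling by library totals alone, the PECAM1 fall (0.00, adjusted p = 0.995) and the KRT18 rise (0.21, adjusted p = 0.126) were not called. The changes of ACTA2, CALD1, KRT19 and KDR were still called. Leukocyte markers summed to at most 0.7452 CPM. The part of these markers in the results was not tested. Bulk libraries cannot tell fewer cells of a type from less RNA per cell.

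TERT was the most abundant transcript of the set and did not differ detectably between days. It lies on the minus strand of chromosome 5 (GRCh38, chr5:1253147-1295068, ENSG00000164362). Its raw counts were 40248, 30621 and 37522 on day 1, 36846, 27422, 28619 and 27055 on day 3, and 40080, 28549, 29443 and 36817 on day 6. TERT made up 0.095% to 0.135% of a library and ranked between place 64 and place 110 among all genes. For comparison, the neighbouring gene SLC6A18 and the lncRNA row that overlaps the end of TERT each had 0 to 2 counts, and CLPTM1L on the other side had 4029 to 4736. A table of counts per gene holds 1 value for the chromosomal gene and the construct together, so their transcripts cannot be told apart.

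After scaling, the day 1 libraries had 1250, 1018 and 1194 CPM of TERT, the day 3 libraries 1204, 1053, 1007 and 997.6 CPM, and the day 6 libraries 1276, 893.4, 893.4 and 1236 CPM. The lowest and the highest of the 11 values were both from day 6, and the 3 days overlapped. Day means were 1154 ± 121 (SD, n = 3), 1065 ± 95.4 (n = 4) and 1075 ± 210 CPM (n = 4). The log2 change was -0.11 from day 1 to day 3 (SE 0.131, approximate 95% interval -0.37 to 0.14, adjusted p = 0.634), 0.01 from day 3 to day 6 (SE 0.121, -0.23 to 0.25, adjusted p = 0.943) and -0.10 from day 1 to day 6 (SE 0.131, -0.36 to 0.15, adjusted p = 0.573; edgeR). With 3 or 4 libraries a day, changes of TERT inside these intervals were not excluded.

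**Figure D1:**
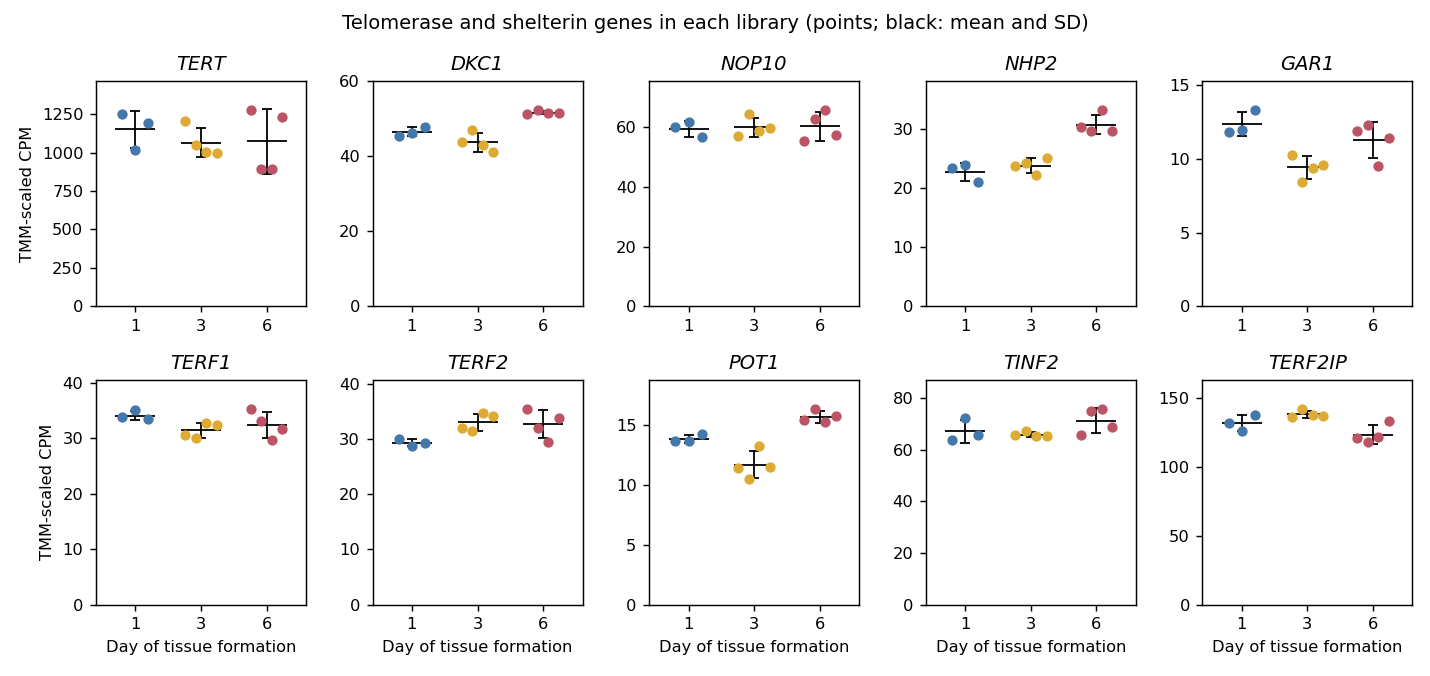
Level of each gene (TMM-scaled CPM, axes from 0) in every library by day of tissue formation; points are libraries, black bars the mean and SD. DKC1, NHP2 and POT1 lie higher in all 4 day 6 libraries than in all 4 day 3 libraries, GAR1 is lower in all day 3 libraries than in all day 1 libraries, and TERT spreads from 893.4 to 1276 CPM on day 6.

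Per unit of transcript length TERT remained in first place. On day 1 its level was 250.7 ± 26.3 CPM per kilobase of all annotated exons (SD, n = 3). For TERT the lengths used are those of the chromosomal gene, and transcripts of the construct may differ in length. NOP10, whose transcript of 554 bases is the shortest of the set, followed at 107.5 ± 4.71 CPM per kilobase, then TERF2IP at 39.04 ± 1.82 and TINF2 at 24.76 ± 1.66. NHP2 had 15.02 ± 0.978, DKC1 11.07 ± 0.304, GAR1 6.044 ± 0.399 and TERF2 5.217 ± 0.114 CPM per kilobase. TERF1, at 3.867 ± 0.097, and POT1, at 2.343 ± 0.0599, were the lowest. On this scale the libraries of neighbours in the order did not overlap on day 1 or day 3, where TERF2 stood above GAR1. On day 6 TERF2 (5.804 ± 0.455 CPM per kilobase, n = 4) and GAR1 (5.513 ± 0.597, n = 4) overlapped.

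The lower part of this order depends on the length used. Per kilobase of the longest transcript, GAR1, TERF2 and TERF1 stood at 10.1, 9.83 and 9.49 CPM on day 1 with overlapping libraries, and NHP2 passed TINF2 on day 6 (35.48 against 32.83 CPM) with overlapping libraries. TERT, NOP10 and TERF2IP kept the first 3 places and POT1 the last under both lengths on every day. Counts of TERT were 17.12 to 27.53 times those of DKC1 in the same library, and 2.068 to 3.029 times the summed counts of the other 9 genes.

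**Figure D2:**
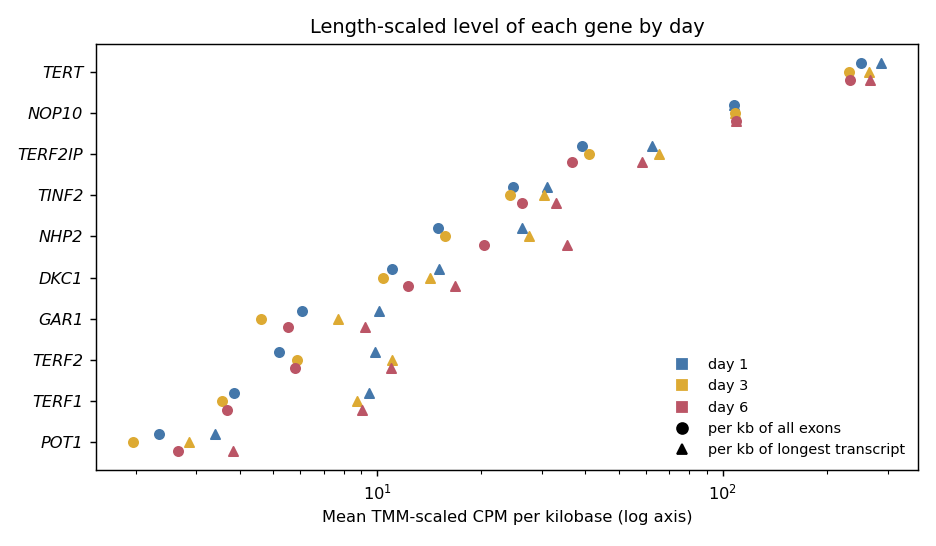
Mean level of each gene per kilobase (TMM-scaled CPM, log axis) by day; circles divide by the length of all annotated exons and triangles by the longest transcript. TERT lies at 231.5 to 250.7 CPM per kilobase of all exons and POT1 at 1.972 to 2.655.

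Among the H/ACA proteins, DKC1 and NHP2 rose from day 3 to day 6, GAR1 fell from day 1 to day 3 and rose by day 6, and NOP10 showed no detectable change. DKC1 encodes dyskerin, the pseudouridine synthase of the H/ACA particle (chrX:154762742-154777689, plus strand). The day 1 libraries had 45.4, 46.3 and 47.9 CPM, the day 3 libraries 43.8, 47.0, 42.9 and 41.0 CPM, and the day 6 libraries 51.3, 52.2, 51.4 and 51.4 CPM. All day 6 libraries were above all others, and they differed by less than 1 CPM. The rise from day 3 was 0.24 on the log2 scale (SE 0.0518, 1.18-fold, adjusted p = 0.000747, edgeR). Between days 1 and 6 the rise was 0.15 (SE 0.0557, adjusted p = 0.0403), a call that was lost in 14 of 21 alternative analyses, 8 of which left out a single library.

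NHP2, an RNA-binding core protein of the particle (chr5:178149463-178153894, minus strand), had 23.3, 23.8 and 21.0 CPM in the day 1 libraries and 23.7, 24.2, 22.1 and 25.0 CPM in those of day 3. On day 6 it stood at 30.3, 29.7, 33.1 and 29.7 CPM. Days 1 and 3 overlapped, and every day 6 library was higher than both. The rise from day 3 was 0.37 (SE 0.0643, 1.29-fold, adjusted p = 9.04e-05) and that from day 1 was 0.44 (SE 0.0697, 1.35-fold, adjusted p = 6.2e-05). NHP2 shares 1106 bases of its locus with RMND5B on the opposite strand, and since the strand setting of the counting is not given in the sources used here, counts near that end are uncertain. RMND5B itself did not pass the test from day 3 to day 6 (log2 change -0.01, adjusted p = 0.887). Rows of 2 processed pseudogenes held 3.29% to 7.28% of the counts summed over NHP2 and its copies.

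GAR1, which joins the particle last in place of the assembly factor NAF1 (chr4:109815510-109824740, plus strand), stood at 11.8, 12.0 and 13.3 CPM on day 1. On day 3 its levels were 10.3, 8.45, 9.36 and 9.59 CPM, all below day 1, and on day 6 they were 11.9, 12.3, 9.53 and 11.4 CPM, of which the third library lay within the day 3 range. The fall to day 3 was -0.39 on the log2 scale (SE 0.0995, 0.76-fold, adjusted p = 0.0141) and the later rise 0.26 (SE 0.0932, 1.19-fold, adjusted p = 0.0288). Without day 1 replicate 3 the fall was no longer called (-0.33, adjusted p = 0.0754). The rise was lost without day 3 replicate 2 or 3, without day 6 replicate 1, 2 or 4, with DESeq2 and with no filter (adjusted p 0.0505 to 0.0938).

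NOP10, the smallest of the 4 proteins (chr15:34339159-34343180, minus strand), had day means of 59.54 ± 2.61, 60.02 ± 3.26 and 60.32 ± 4.77 CPM (SD, n = 3, 4 and 4). The highest day mean was 1.01 times the lowest, and the interval of the change from day 3 to day 6 ran from -0.11 to 0.13 on the log2 scale. The 4 genes together summed to 138.9 to 143.9 CPM on day 1, 133.1 to 144.3 CPM on day 3 and 148.9 to 159.7 CPM on day 6.

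**Figure D3:**
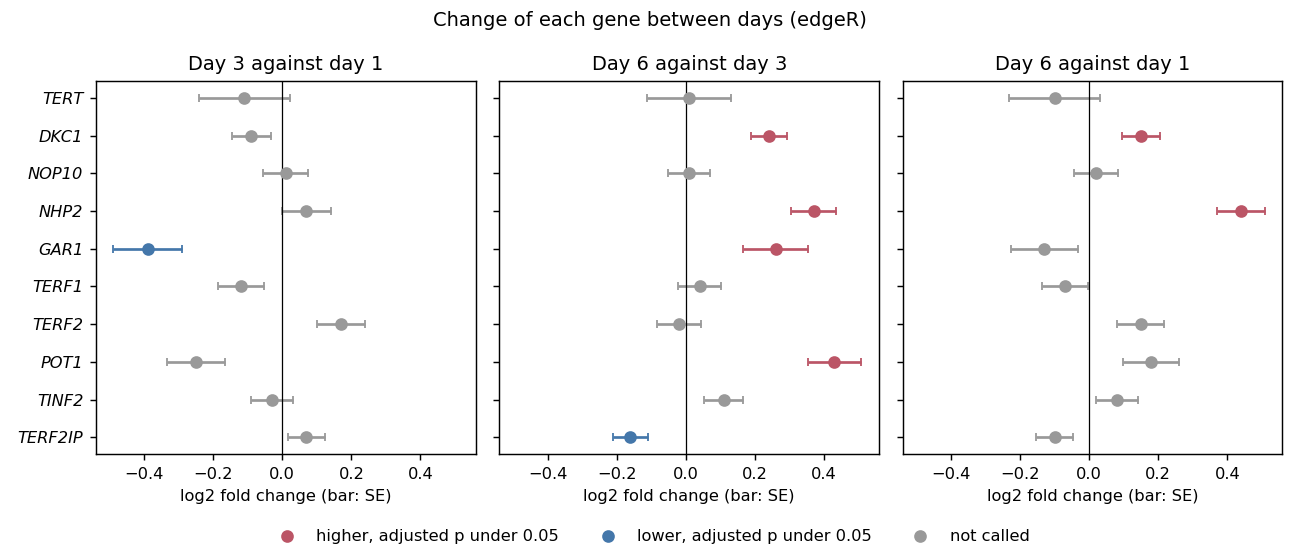
Log2 fold change of each gene between days with its SE (edgeR); red marks genes called higher and blue genes called lower at an adjusted p under 0.05. From day 3 to day 6 DKC1, NHP2, GAR1 and POT1 are higher by 0.24 to 0.43 and TERF2IP is lower by 0.16, while from day 1 to day 3 only GAR1 is called.

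Of the shelterin genes, POT1 rose and TERF2IP fell from day 3 to day 6, and TERF1, TERF2 and TINF2 were not called between any 2 days. POT1, which covers the single-stranded overhang (chr7:124822386-124929983, minus strand), had 13.6, 13.6 and 14.2 CPM in the day 1 libraries, 11.4, 10.5, 13.2 and 11.5 CPM in those of day 3, and 15.4, 16.3, 15.2 and 15.7 CPM in those of day 6. Each day 3 library was below each day 1 library, and each day 6 library above both. The change to day 3 was -0.25 (SE 0.083, adjusted p = 0.0562) and was called in 6 of 21 alternatives. The rise from day 3 to day 6 was 0.43 (SE 0.0766, 1.35-fold, adjusted p = 0.000125), and the day 6 level differed from day 1 by 0.18 (adjusted p = 0.0847). The antisense row POT1-AS1, which shares 122 bases with POT1, held 4 to 18 counts beside 273 to 522 of POT1.

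TERF2IP, the human RAP1 (chr16:75647773-75761872, plus strand), was the most abundant shelterin transcript. Day 1 libraries had 132, 126 and 138 CPM, those of day 3 had 136, 142, 138 and 137 CPM, and those of day 6 had 121, 118, 122 and 133 CPM. All day 6 libraries were below all day 3 libraries and overlapped day 1. The fall from day 3 was -0.16 (SE 0.0507, 0.89-fold, adjusted p = 0.0112). This call ended when libraries were scaled by their totals alone (0.02, adjusted p = 0.742) or when the letter in the column names was a block (-0.14, adjusted p = 0.0861). Scaling by totals moved the median change of all genes from 0.031 to 0.215, and relative to that median TERF2IP lay at -0.20.

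The remaining shelterin genes moved little. TERF1, on chromosome 8, whose protein is a target of the tankyrases, had day means of 34.15 ± 0.856, 31.47 ± 1.34 and 32.46 ± 2.36 CPM (SD, n = 3, 4 and 4), with all day 3 libraries below day 1 (-0.12, adjusted p = 0.266). TERF2, needed for the loop at the chromosome end (chr16:69355567-69408571, minus strand), had 29.33 ± 0.642, 33.02 ± 1.6 and 32.62 ± 2.56 CPM, with all day 3 libraries above day 1 (0.17, adjusted p = 0.11). TINF2, the bridge (chr14:24238286-24242663, minus strand), had 67.16 ± 4.5, 65.83 ± 0.957 and 71.18 ± 4.88 CPM. From day 3 to day 6 the intervals on the log2 scale were -0.08 to 0.16 for TERF1, -0.14 to 0.11 for TERF2 and 0.00 to 0.22 for TINF2. The 5 shelterin genes summed to 273.4 to 280.4, 275.8 to 283.3 and 272.2 to 282.7 CPM on days 1, 3 and 6, so the sums overlapped. TERF2 shares 10170 bases of locus with CYB5B, TINF2 957 with GMPR2 and TERF2IP 871 with KARS1. Rows of 7 TERF1 pseudogenes held 2.97% to 5.1% of the counts of that family.

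The counts of calls were read against those over all genes tested. In the early step, 1 of the 10 was called (lower), where 12.8% of all genes tested were called, 6.88% higher and 5.9% lower. From day 3 to day 6, 5 of 10 were called (4 higher, 1 lower), where the background was 49.9%, with 26.4% higher and 23.4% lower, so the share called was that of all genes. Between days 1 and 6, 2 of 10 were called, both higher, beside 39.9% of all genes (21.3% higher, 18.7% lower). The median absolute log2 change of the members was 0.10, 0.14 and 0.12 in these comparisons, below the 0.16, 0.29 and 0.25 of all genes tested, and their medians with sign were -0.06, 0.08 and 0.05 beside 0.00, 0.03 and 0.02.

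The change from day 3 to day 6 was then compared with that from day 1 to day 3 in the same fit. This difference of steps was called for 4 of 10 genes, all positive, where 35.2% of all genes were called, 17.5% positive and 17.7% negative. It was 0.68 for POT1 (SE 0.138, adjusted p = 0.000884), 0.64 for GAR1 (SE 0.167, adjusted p = 0.00546), 0.33 for DKC1 (SE 0.0929, adjusted p = 0.009) and 0.30 for NHP2 (SE 0.116, adjusted p = 0.0474). For TERF2IP it was -0.23 (adjusted p = 0.0503). NHP2 and TERF2IP lay close to the threshold, and the split was 3 positive and 1 negative with RLE factors, DESeq2, limma-voom or the offsets for GC content and length, and 6 and 0 with library totals. With totals 5748 of all genes were called positive and 1684 negative. POT1, GAR1 and DKC1 had their lowest day means on day 3, and NHP2 on day 1.

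Promoter sequence is shown for the 4 genes called higher from day 3 to day 6, cut to the bases before every annotated start (RefSeq, GRCh38.p14, read 5′ to 3′ on the gene's strand). The stretches are chrX:154762614-154762741 for DKC1, chr5:178153968-178154135 for NHP2, chr4:109815260-109815509 for GAR1 and chr7:124929984-124930075 for POT1. Capitals mark the GC box GGGCGG on either strand (CCGCCC where it lies on the other strand) and, in DKC1, the core of the NRF1 motif, GCATGCGC, whose matches on the 2 strands overlap.
DKC1: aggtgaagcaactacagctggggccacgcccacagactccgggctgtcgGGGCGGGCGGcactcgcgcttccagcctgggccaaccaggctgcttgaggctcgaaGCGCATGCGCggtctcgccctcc
NHP2: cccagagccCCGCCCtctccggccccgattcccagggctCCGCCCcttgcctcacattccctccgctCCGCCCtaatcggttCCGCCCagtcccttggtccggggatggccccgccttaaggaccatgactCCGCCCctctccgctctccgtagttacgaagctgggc
GAR1: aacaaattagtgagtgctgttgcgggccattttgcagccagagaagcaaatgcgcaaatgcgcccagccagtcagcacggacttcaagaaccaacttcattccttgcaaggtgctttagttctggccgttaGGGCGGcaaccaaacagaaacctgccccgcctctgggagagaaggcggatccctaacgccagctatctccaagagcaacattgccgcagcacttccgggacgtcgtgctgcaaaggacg
POT1: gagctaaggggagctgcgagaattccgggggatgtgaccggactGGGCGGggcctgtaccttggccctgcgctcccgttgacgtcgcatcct

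The printed stretches held 70.3% G and C for DKC1, 69.0% for NHP2, 55.2% for GAR1 and 66.3% for POT1. GC boxes numbered 5 in NHP2, 2 overlapping ones in DKC1 and 1 each in GAR1 and POT1. Windows of 300 bases around the start were scanned for 7 of the 10 genes. The GC box was in 7 of 7 windows, those of NOP10, TINF2 and TERF2IP included, and in 44.9% of 34796 windows of all genes. The NRF1 core was in the DKC1 window and in 2.99% of all windows. The E-box CACGTG, which reads the same on both strands, was in the NOP10 window and in 7.2% of all windows. CCAAT was in the NOP10, NHP2 and TINF2 windows and in 34.6% of all, and TATAAA (11.6% of all) and the E2F sites TTTCCCGC, TTTCGCGC, TTTGCCGC and TTTGGCGC (3.3% of all) were in none of the 7. These are matches of letters, and binding was not measured.

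Within a day TERT varied more than genes of like abundance. The SD of log2 CPM pooled over days was 0.205 for TERT, where the median of the genes nearest in level was 0.0877 and 92.8% of them had a lower SD. DKC1 was the steadiest of the set against its like (0.0549 beside 0.0818). On day 6 replicates 1 and 4 had high TERT (1276 and 1236 CPM) and low TINF2 (65.6 and 68.6 CPM), and replicates 2 and 3 had low TERT (893.4 CPM in both) and high TINF2 (74.8 and 75.7 CPM). NOP10 followed TINF2, at 55.5 and 57.3 CPM beside 62.8 and 65.7 CPM.

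These day 6 libraries also differed in how genes of long transcripts read. The mean deviation of genes in the longest quintile minus that of genes in the shortest quintile was 0.098 and 0.049 (log2) in replicates 1 and 4 and -0.11 and -0.037 in replicates 2 and 3. On day 1 it was 0.062, -0.024 and -0.039 in replicates 1, 2 and 3, where TERT stood at 1250, 1018 and 1194 CPM, and on day 3 it was -0.007, -0.025, 0.021 and 0.012, where TERT stood at 1204, 1053, 1007 and 997.6 CPM. TERT, whose longest annotated transcript exceeds 63.5% of tested genes in length, lay outside that longest quintile. It is also rich in G and C (65.7%, above 97.6% of tested genes). The deviation of the quintile richest in G and C minus the poorest was -0.085, 0.021, 0.071 and -0.006 in day 6 replicates 1 to 4. On day 3 it was 0.043, 0.153, -0.062 and -0.134, and on day 1 it was 0.001, 0.015 and -0.016. The part of transcript length or base composition in the spread of TERT was not tested. With both as offsets, an analysis added after the data were seen, TERT changed by -0.10, 0.06 and -0.04 in the 3 comparisons (adjusted p 0.703, 0.729 and 0.853).

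**Figure D4:**
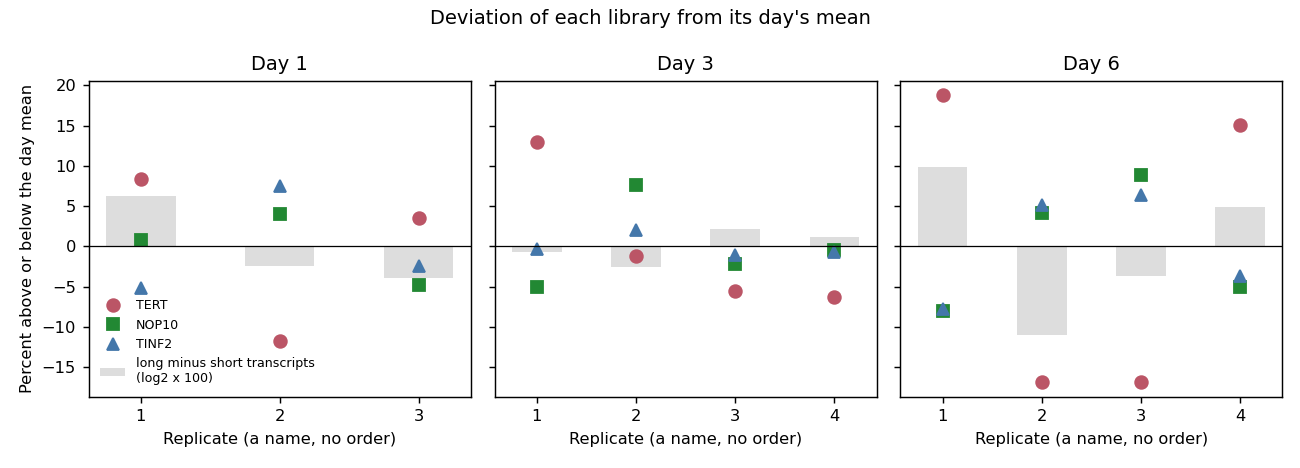
Percent by which TERT, NOP10 and TINF2 lie above or below their day's mean in each library; grey bars show the mean log2 deviation of the longest minus the shortest quintile of genes, times 100. On day 6 TERT is high and TINF2 and NOP10 low in replicates 1 and 4, where the grey bars are 0.098 and 0.049 before that scaling.

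The genes whose pattern over the 11 libraries was most like a member's were found by Pearson correlation of log2 CPM among 9993 protein-coding genes of at least 5 CPM, as a description over libraries that share their day and depth. For TERT these were CHERP (r = 0.963), NFIC (0.941), ASAP1 (0.941) and RERE (0.932). For DKC1 they included CHST14 (0.971), ERCC2 (0.966) and GLB1L (0.953). For TERF1 they were VAMP3 (0.917), SIAE (0.916), ADAM9 (0.874) and PSMG1 (0.858). ERCC2, a helicase of nucleotide excision repair picked here for its likeness to DKC1, likewise had its highest day mean on day 6 (49.03 CPM).

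Further subunits at the chromosome end were read from a list of 4 partners. ACD, the shelterin subunit TPP1 that carries POT1 and recruits telomerase, and CTC1 and STN1, of the CST complex that limits telomerase and fills in the other strand, were the 3 tested, and TEN1 had 0 to 4 counts. None was called from day 1 to day 3. From day 3 to day 6, 2 of 3 rose, CTC1 from 13.04 ± 0.856 to 17.55 ± 2.11 CPM (0.43, adjusted p = 0.000359) and STN1 from 5.258 ± 1.01 to 7.372 ± 0.53 CPM (0.49, adjusted p = 0.00545). ACD had a change of 0.16 (adjusted p = 0.0515) in that step, and from day 1 to day 6 all 3 rose, ACD by 0.20 (adjusted p = 0.0313). With DESeq2, 2 of the 3 rose from day 1 to day 6. Of all genes tested, 26.4% were called higher from day 3 to day 6 and 21.3% from day 1 to day 6. The median change of the 3 was 0.43 from day 3 to day 6 beside 0.03 for all genes.

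Of 16 tested genes of telomerase assembly and TERC maturation, none was called early, and 6 rose and 2 fell from day 3 to day 6 (median 0.02), a share close to the 49.9% of all genes called in that step. RUVBL1, an ATPase that helps assemble the enzyme, rose from 37.31 ± 2.81 to 53.05 ± 2.85 CPM (0.51, adjusted p = 1.34e-06), and PARN, a deadenylase that matures TERC, rose from 33.22 ± 1.06 to 47.07 ± 4.61 CPM (0.50, adjusted p = 1.06e-05). TGS1, which methylates the cap of TERC, fell by 0.18 (adjusted p = 0.0163) and ZCCHC8, of a nuclear RNA decay complex, fell by 0.19 (adjusted p = 0.0271). With library totals alone neither fall was seen (0.01 and 0.00). In that setting 9 of the 16 rose and 0 fell, where 7885 of all genes were called higher and 2239 lower (median 0.215). Between days 1 and 6, 6 rose and 3 fell, where 39.9% of all genes were called. RUVBL1 (0.41, adjusted p = 6.08e-05) and TEP1 (0.38, adjusted p = 0.000115) were among those that rose. PTGES3, a chaperone of TERT (-0.33, adjusted p = 0.00597), and TGS1 (-0.23, adjusted p = 0.00524) were among those that fell. With library totals these falls were not called (-0.20, adjusted p = 0.06, and -0.11, adjusted p = 0.185). In that setting 8 of the 16 rose and 0 fell, where 5966 of all genes were called higher and 2040 lower (median 0.149). TERC itself had 0 to 5 counts and was below the filter, in libraries selected for poly(A) tails, which mature TERC lacks.

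Of 23 genes of telomere replication, end processing and repair, 3 rose and 1 fell from day 1 to day 3, 10 rose and 2 fell from day 3 to day 6 (median 0.23), and 13 rose and 0 fell from day 1 to day 6, where 12.8%, 49.9% and 39.9% of all genes were called. With library totals 17 rose and 1 fell from day 3 to day 6 (median 0.42). In that setting 7885 of all genes were called higher and 2239 lower (median 0.215). SLX4, a scaffold for nucleases, fell by 0.41 early (adjusted p = 0.0252) and rose from 4.486 ± 0.551 to 12.1 ± 0.787 CPM late (1.43, adjusted p = 2.97e-09). PRIM1, the catalytic subunit of primase, rose by 1.60 late (adjusted p = 2.97e-07), and POLA1, of DNA polymerase alpha, by 1.28 from day 1 to day 6 (adjusted p = 2.66e-07). NBN, of the complex that senses DNA ends, rose from 46.68 ± 5.96 to 63.7 ± 1.99 CPM early (0.45, adjusted p = 0.00145) and fell to 44.96 ± 4.42 CPM late (-0.50, adjusted p = 2.22e-05). ATM, the kinase activated by broken ends, rose by 0.42 early (adjusted p = 0.00164). TNKS2, a tankyrase that removes TERF1 from telomeres, fell by 0.19 late (adjusted p = 0.0126), a fall not seen with library totals (-0.01).

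Because the H/ACA proteins also serve ribosome production, 18 genes of the box C/D particle and of nucleolar ribosome biogenesis were set beside them. Early, 1 rose (NOLC1, 0.20, adjusted p = 0.0491, not called with RLE factors or library totals) and 1 fell (RRS1, -0.37, adjusted p = 0.0221). From day 3 to day 6, 6 rose and 4 fell (median 0.03), near the 49.9% of all genes called, with RRS1, a ribosome assembly factor, up by 0.70 (adjusted p = 6.07e-06) and POLR1A, the largest subunit of RNA polymerase I, up by 0.49 (adjusted p = 6.97e-06). NPM1, nucleophosmin, fell from 505.0 ± 11.4 to 368.5 ± 27.9 CPM (-0.45, adjusted p = 2.57e-06) and GNL3, nucleostemin, fell by 0.23 (adjusted p = 0.00487). With library totals 11 rose and 1 fell, where 7885 of all genes were called higher and 2239 lower, and GNL3 stood at -0.04. Between days 1 and 6, 8 rose and 1 fell, with POLR1B (0.58, adjusted p = 3.97e-06) and NOP56 (0.33, adjusted p = 0.000226) up and NPM1 down (-0.34, adjusted p = 0.000189). Of all genes tested, 12.8% were called early and 39.9% between days 1 and 6.

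Proliferation markers rose in the late step, in which DKC1, NHP2, GAR1, POT1 and 26.4% of all genes tested were called higher. All 10 of this list rose from day 3 to day 6 (median 1.63) and from day 1 to day 6 (median 1.93), and none was called early. From day 1 to day 6, 21.3% of all genes were called higher. The 7 smooth muscle markers tested rose from day 3 to day 6 too (median 1.25), 6 of them with RLE factors or DESeq2. MCM5 and MCM2, of the replicative helicase, rose by 1.18 (adjusted p = 2.38e-08) and 0.95 (adjusted p = 3.81e-07) late. The 10 markers summed to 74.93 to 99.76 CPM on day 1, 95.05 to 112.6 CPM on day 3 and 223.7 to 337.5 CPM on day 6, and their part in the changes of telomerase and shelterin genes was not tested.

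**Figure D5:**
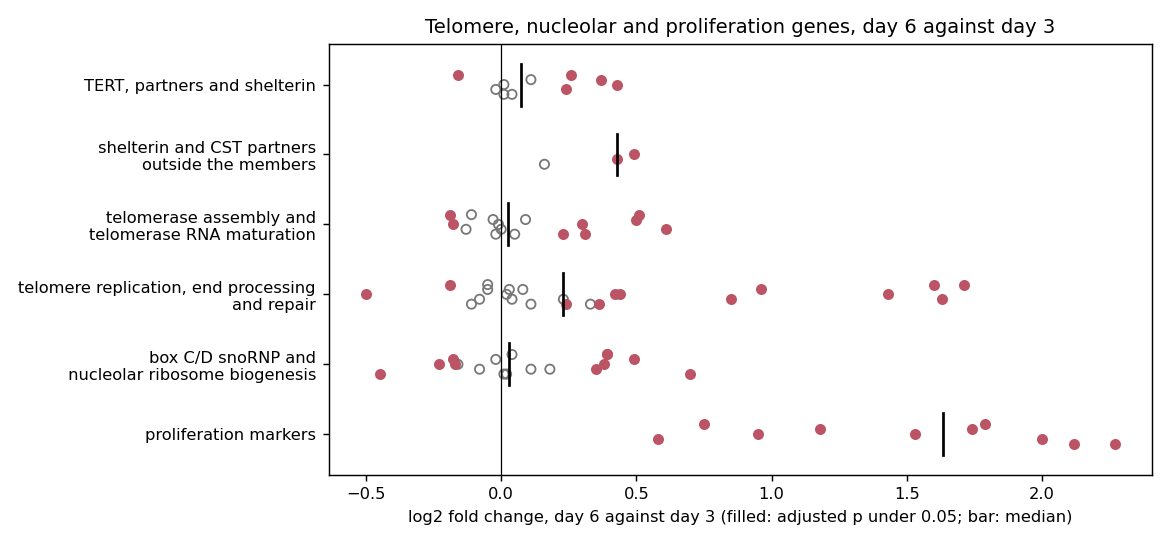
Log2 fold change from day 3 to day 6 of each tested gene, by list; filled points passed at an adjusted p under 0.05 and the bar is the list's median. The telomerase and shelterin genes lie between -0.16 and 0.43, the proliferation markers have a median of 1.63, and the replication and repair genes reach beyond 1.5 with PRIM1 at 1.60.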

How the data were processed

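RNA-seq of polyadenylated RNA was compared in 11 libraries, grouped by the day in the sample titles. The authors deposited raw counts of reads per gene, 1 column per library, with 0 columns unused. The submitters' processing notes name GRCh38 and, with no role or order, Salmon 1.10.0, STAR 2.7.11b, featureCounts 2.0.8 (Subread) and DRAGEN. The release of the annotation, the strand setting and the handling of reads that map to several places are not given in the sources used here. Of 79031 rows, 99 (92 spike-ins and 7 transgene rows) named no human gene. They held at most 2 counts, or 6.79e-06% of a library, and were left out.

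Genes were kept by filterByExpr (minimum count 10, minimum total 15, by day). Tests used edgeR 4.0.16 (R 4.3.3) with TMM factors and the robust quasi-likelihood test, day as the factor and all 11 libraries in 1 fit. P-values were adjusted over 18245 genes by the Benjamini-Hochberg method, and genes were called under 0.05. SEs came from the F statistic and approximate intervals are 1.96 SE to either side. A library of this depth gives 0.0908 to 0.107 CPM for 3 counts, the limit that a count of 0 allows, for counting error only. Every replicate pair differed beyond sampling noise in a chi-square test, so no library repeated the counts of another. Libraries prepared from the same tissue or RNA could differ in this way too. Lengths, base composition and strands came from GENCODE 29. Its longest transcripts matched 93.4% of tested genes and all 10 members.

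Members and lists were chosen with earlier results of these data known. Named were all members, up to 2 rising and 2 falling genes of smallest adjusted p per list and comparison, overlapping and neighbouring rows, and the 4 genes most like TERT, DKC1 and TERF1, of which 1 is not reported here. The fit was tested on simulated data. Alternatives were DESeq2 1.42.0, limma-voom (limma 3.58.1), RLE factors, scaling by library totals only, no filter, at least 1 CPM in at least 3 libraries, blocks for replicate number or column letter, only the 2 days compared, each library left out, and offsets for GC content and length.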

Additional observations from a re-analysis of the deposited data

Results flagged for a closer look

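In 2 of 20 sets of 4 libraries (10 genes on days 3 and 6) the highest library stood apart from the other 3 by more than Dixon's 95% limit, which chance passes in about 1 of 20 sets. DKC1 on day 6 had 52.2 CPM in its highest library, a gap of 0.885 of the range of that day, in a set of very small spread (51.58 ± 0.416 CPM, SD, n = 4). NHP2 on day 6 had 33.1 CPM in its highest library, a gap of 0.831 of the range. Without day 6 replicate 2, which held the high DKC1 value, or replicate 3, which held the high NHP2 value, both genes were still called higher than on day 3.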

How the results depend on the processing

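Of 630 values of the 10 genes under an alternative, 591 kept their side of the threshold, and 23 lost and 14 gained a call. The other 2 changed sign and were called in the main fit or the alternative. Both arose with library totals only from day 3 to day 6: TERF2 to 0.17 (adjusted p = 0.031) and TERF2IP to 0.02 (adjusted p = 0.742). Changes of sign in values that were never called count among the 591. An example is TERT from day 1 to day 6, at -0.10 in the main fit and 0.02 with totals. Totals moved the median change of all genes by 0.184 in that comparison and by 0.127 from day 1 to day 6. They turned the split of higher and lower calls from 4825 and 4277 to 7885 and 2239, from 3882 and 3405 to 5966 and 2040, and, from day 1 to day 3, from 1255 and 1077 to 840 and 1630. The late rises of DKC1, NHP2 and POT1 were called in all 21 alternatives run (highest adjusted p 0.00937, 0.00149 and 0.00134).

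Members called from day 1 to day 3 numbered 2 with library totals (2470 genes called), DESeq2 (2516) or the filter of 1 CPM (2360). They also numbered 2 with only the 2 days compared, where genes called rose to 3617. From day 3 to day 6 they numbered 8 with totals, where 10124 of 18245 genes were called, 7885 of them higher. From day 1 to day 6 they numbered 5 with totals, where 8006 genes were called, 5966 of them higher. They numbered 1 with RLE factors (7288 genes called), DESeq2 (6725) or no filter (6762). The column letter block (5183 genes called), only the 2 days compared (6419) and the GC content and length offsets also gave 1 member. For the difference of steps members called numbered 2 with no filter (5960 genes called) and 6 with totals (7432 genes called). Leaving out single libraries gave 1344 (without day 1 replicate 1; 1352 without replicate 2) to 2998 genes called from day 1 to day 3, and 0 to 2 members from day 1 to day 3, 4 to 5 from day 3 to day 6, 1 to 3 from day 1 to day 6 and 3 to 5 for the difference of steps. Where no cause follows from the setting itself, the cause was not tested.

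Deviations of libraries with the same replicate number correlated by -0.023 to 0.103, and those with different numbers by -0.083 to 0.064. The ranges overlap, with the highest value in the first, so whether the numbers mark pairs is not settled. The main fit did not take them as pairs. Replicate 1 had the highest TERT on each day (1250, 1204 and 1276 CPM). With the replicate block TERT changed by -0.14 from day 1 to day 6 (adjusted p = 0.278, edgeR). The replicate block gave 2191, 9162, 7119 and 6391 genes and 1, 5, 2 and 3 members called in the 4 comparisons. The 3 or 4 libraries a day limit the precision of every change.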
